A study of Homo sapiens with 8 samples.

Results

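The genes described here encode beta and gamma subunits of heterotrimeric G proteins in 2 human fibroblast lines, measured by RNA sequencing after depletion of SUPT4H1. They are 9 named genes of 25268 gene symbols in the tables: the gamma genes GNG2, GNG5, GNG10, GNG11 and GNG12 and the beta genes GNB1, GNB2, GNB4 and GNB5. The members were picked by name with the difference between the siRNAs already known, GNG11 because its level was about 2 times the control, so their siRNA differences are given as a description and without a test. SUPT4H1 encodes the small subunit of DSIF, a complex that travels with RNA polymerase II during elongation. Each line (line 1 and line 2, labelled as population control fibroblasts) received either an siRNA that targets SUPT4H1 or a non-targeting one as control, with 2 replicate treatments of each, which gives 4 control and 4 SUPT4H1 siRNA samples. All 8 samples share the transfection with Lipofectamine RNAiMax and growth in DMEM with 10% FBS and PenStrep. The labels give no transfection time or dose, and they do not say that replicates were separate cultures, so their spread may be technical.

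A heterotrimeric G protein has an alpha subunit that binds GTP and a beta-gamma pair that stays together as one unit. When a receptor activates the protein, alpha and beta-gamma separate, and free beta-gamma acts on its own targets, among them phospholipase C beta, phosphoinositide 3-kinases, adenylyl cyclases and potassium and calcium channels. The gamma subunit is short and carries a prenyl lipid on a cysteine near its carboxyl end, which holds the pair at membranes. In fibroblasts such proteins pass on signals from lysophospholipids, thrombin, bradykinin and other ligands.

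The gamma genes differ in the last sense codon, which helps to decide the lipid: a terminal serine is read by the farnesyl transferase and a terminal leucine by the geranylgeranyl transferase. The last 15 bases of each coding sequence, stop codon included, are shown 5′ to 3′ from the GENCODE v29 transcripts, with the last sense codon in capitals.
GNG11: tgtgttattTCAtaa
GNG12: tgcatcatcTTAtag
GNG5: tgttcctttTTGtag
GNG10: tgtgctttaCTCtga
GNG2: tgtgccatcCTTtaa
All 5 stretches open with a cysteine codon. GNG11 ends with a serine codon, and the other 4 end with a leucine codon. The coding sequence has 73 codons in GNG11, 72 in GNG12, 71 in GNG2 and 68 in both GNG5 and GNG10, the stop codon not counted.

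The region before the start of GNG11 also differed in base composition from that of most members. The 250 bases upstream of the RefSeq start (GRCh38.p14) are shown for GNG11, for the most abundant gamma gene GNG12 and for GNB4. GNB4 was the member with the most negative siRNA difference. The windows are written 5′ to 3′ on the gene's strand with CpG dinucleotides in capitals. They lie at chr7:93921485-93921734 on the plus strand for GNG11, at chr1:67833468-67833717 on the minus strand for GNG12 and at chr3:179451471-179451720 on the minus strand for GNB4.
GNG11: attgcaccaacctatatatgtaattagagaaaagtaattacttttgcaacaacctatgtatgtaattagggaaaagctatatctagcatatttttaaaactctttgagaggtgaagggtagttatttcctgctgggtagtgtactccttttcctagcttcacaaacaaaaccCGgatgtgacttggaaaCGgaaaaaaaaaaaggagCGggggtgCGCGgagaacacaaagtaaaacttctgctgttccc
GNG12: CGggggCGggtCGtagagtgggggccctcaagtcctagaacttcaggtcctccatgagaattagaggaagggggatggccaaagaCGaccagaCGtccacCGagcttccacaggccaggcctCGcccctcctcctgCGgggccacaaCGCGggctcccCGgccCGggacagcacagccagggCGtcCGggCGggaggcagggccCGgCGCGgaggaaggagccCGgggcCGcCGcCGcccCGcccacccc
GNB4: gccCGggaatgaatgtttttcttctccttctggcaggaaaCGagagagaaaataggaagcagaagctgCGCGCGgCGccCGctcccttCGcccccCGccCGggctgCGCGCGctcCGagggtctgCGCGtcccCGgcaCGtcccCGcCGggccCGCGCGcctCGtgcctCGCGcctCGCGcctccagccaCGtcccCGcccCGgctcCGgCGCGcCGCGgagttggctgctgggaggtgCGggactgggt
The GNG11 window holds 38.4% G and C bases and 5 CpG dinucleotides, against 73.2% and 23 for GNG12 and 73.6% and 37 for GNB4. Over 35116 such windows in the RefSeq table, the median was 58% and 11 CpG. Of these windows, 10.8% had no more G and C than GNG11, and 38.1% had no more CpG. The windows of GNG5, GNG10, GNB1 and GNB2 held 63.2 to 79.2% G and C. GNG2, which has 5 listed starts, was also low, at 41.2 to 50.4%. The motif GGGCGG, searched on both strands, occurred in the windows of GNG5, GNG10, GNG12, GNB1 and GNB4 and in 2 of the 3 windows of GNB5, but not in those of GNG11, GNG2 or GNB2, and it occurs in 42.6% of all windows. TATAAA (10.7% of all windows), CCAAT (32%) and TGACGTCA (1.65%) occurred in no member's window. TGANTCA (6.57%) occurred in that of GNG5 and in 1 of GNG2. These matches describe letters in the window only.

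**Figure D1:**
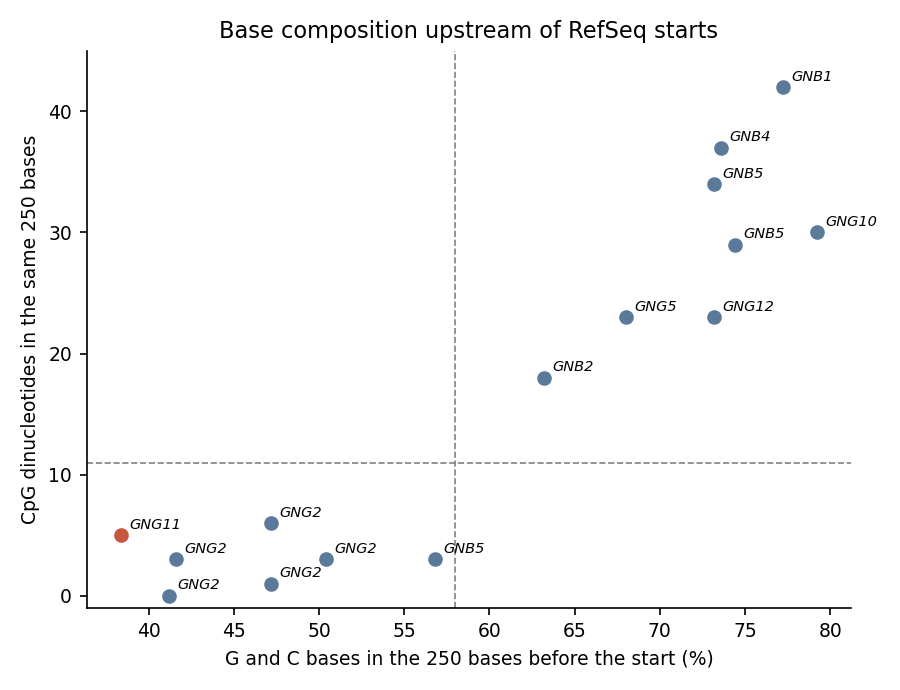
Each point is the 250-base window before 1 RefSeq start of a member, placed by its G and C content (%, x axis) and its number of CpG dinucleotides (y axis), with the medians of 35116 windows as dashed lines. GNG11 (red, 38.4% and 5) sits at the low end with the 5 windows of GNG2 and 1 of GNB5, and the other members lie above both medians.

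SUPT4H1 itself checked the labels. It stood at 25.6 to 28.3 FPKM (fragments scaled by transcript length and by library size) in the 4 control samples and at 1.37 to 1.74 FPKM after its siRNA, so 5.46% remained in line 1 and 6.3% in line 2. All 6 fibroblast markers were above 1 FPKM in every sample, among them COL3A1 at 1600 FPKM or more. The summed level of 6 endothelial markers was 0.194 to 0.242 FPKM in the control and 0.17 to 0.291 FPKM in the SUPT4H1 siRNA samples, with none at a mean of 1 FPKM. Of 5 platelet and megakaryocyte markers, PF4, PPBP and GP9 were at 0 in all samples, and the 5 summed to at most 0.207 FPKM in the control and 0.239 FPKM in the SUPT4H1 siRNA samples. The 3 smooth muscle markers summed to 1.86 to 9.71 FPKM in the control and 1.31 to 14.4 FPKM in the SUPT4H1 siRNA samples. Over all samples CNN1 ranged from 0.774 to 14.1 FPKM and DES from 0.124 to 1.19 FPKM, with MYH11 below 0.1 FPKM throughout. The 4 epithelial markers summed to 0.471 to 0.589 FPKM in the control and 0.706 to 0.993 FPKM in the SUPT4H1 siRNA samples, which did not overlap, with EPCAM and CDH1 below 0.1 FPKM, and their part in the results was not tested. The 4 leukocyte markers summed to 2.1 to 3.14 and 2.77 to 3.23 FPKM, nearly all of it CD14 (1.89 to 3.1 FPKM), with CD3E at 0. The 3 neuronal markers summed to at most 0.446 FPKM in any sample. Fragment numbers are not given. With the depth of control line 1 replicate 1 set to 1, the other libraries ranged from 0.82 to 1.127.

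GNG11, a farnesylated gamma subunit, was the gamma gene with the largest siRNA difference. Its locus is chr7:93551016-93555826 (hg19, like all loci of the tables). In line 1 it measured 37.8 and 38.7 FPKM in the control replicates and 75.9 and 72.8 FPKM in the SUPT4H1 siRNA replicates. In line 2 the control replicates measured 42.2 and 44.5 FPKM and the SUPT4H1 siRNA replicates 89.7 and 91.8 FPKM. All 4 SUPT4H1 siRNA samples lay above all 4 control samples with a wide gap. The share of all genes whose siRNA groups part was not counted, so no such gap is read as particular, here or below. The ratio of the means was 1.94 in line 1 and 2.09 in line 2, and the means over both lines were 40.8 ± 3.11 and 82.5 ± 9.60 FPKM (SD, n = 4 each). On the log2(FPKM + 1) scale, which somewhat understates the change of low genes, the difference with the line as a block was 0.99 (SE 0.0321). Replicates of a group differed by at most 5.29%, and the deposited interval, which covers counting error only, reached 3.55 to 5.35% of the value to either side. In bulk RNA, more cells with a transcript and more transcript per cell cannot be told apart, here and for every gene below.

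GNG12 was the most abundant gamma gene in every sample. GNG12 (chr1:68167149-68299155) measured 99.1 and 97.0 FPKM in the control and 108 and 107 FPKM in the SUPT4H1 siRNA replicates of line 1, and 91.3 and 93.3 against 102 and 103 FPKM in line 2. The groups did not overlap, but the ratios were only 1.10 in line 1 and 1.11 in line 2, a log2 difference of 0.14 (SE 0.021). An antisense transcript, GNG12-AS1, overlaps the start of GNG12, and its row stood at no more than 0.172 FPKM in any sample. Whether strand was used in counting is not given, so reads of the pair cannot be told apart there.

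The other 3 gamma members showed small differences. GNG5 (chr1:84964006-84972262), a short gamma subunit found in most tissues, ranged from 38.9 to 43.6 FPKM in the control and from 37.9 to 43.7 FPKM in the SUPT4H1 siRNA samples, so the groups overlapped in full. GNG10 (chr9:114423851-114432526) ranged from 26.0 to 27.5 FPKM in the control and from 22.8 to 26.9 FPKM after SUPT4H1 siRNA. The lowest GNG10 value came from 1 replicate of line 1, and its replicate measured 26.3 FPKM. GNG10 shares exons with the read-through gene DNAJC25-GNG10, whose row stood at no more than 0.0104 FPKM in any sample, so the split of reads between these rows is uncertain. GNG2 (chr14:52327022-52436518), the gamma subunit most used in laboratory studies of beta-gamma, was the least abundant, at 6.29 to 6.76 FPKM in the control and 5.72 to 7.0 FPKM in the SUPT4H1 siRNA samples. The log2 differences were −0.03 (SE 0.0359) for GNG5, −0.07 (SE 0.0419) for GNG10 and −0.07 (SE 0.0485) for GNG2.

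**Figure D2:**
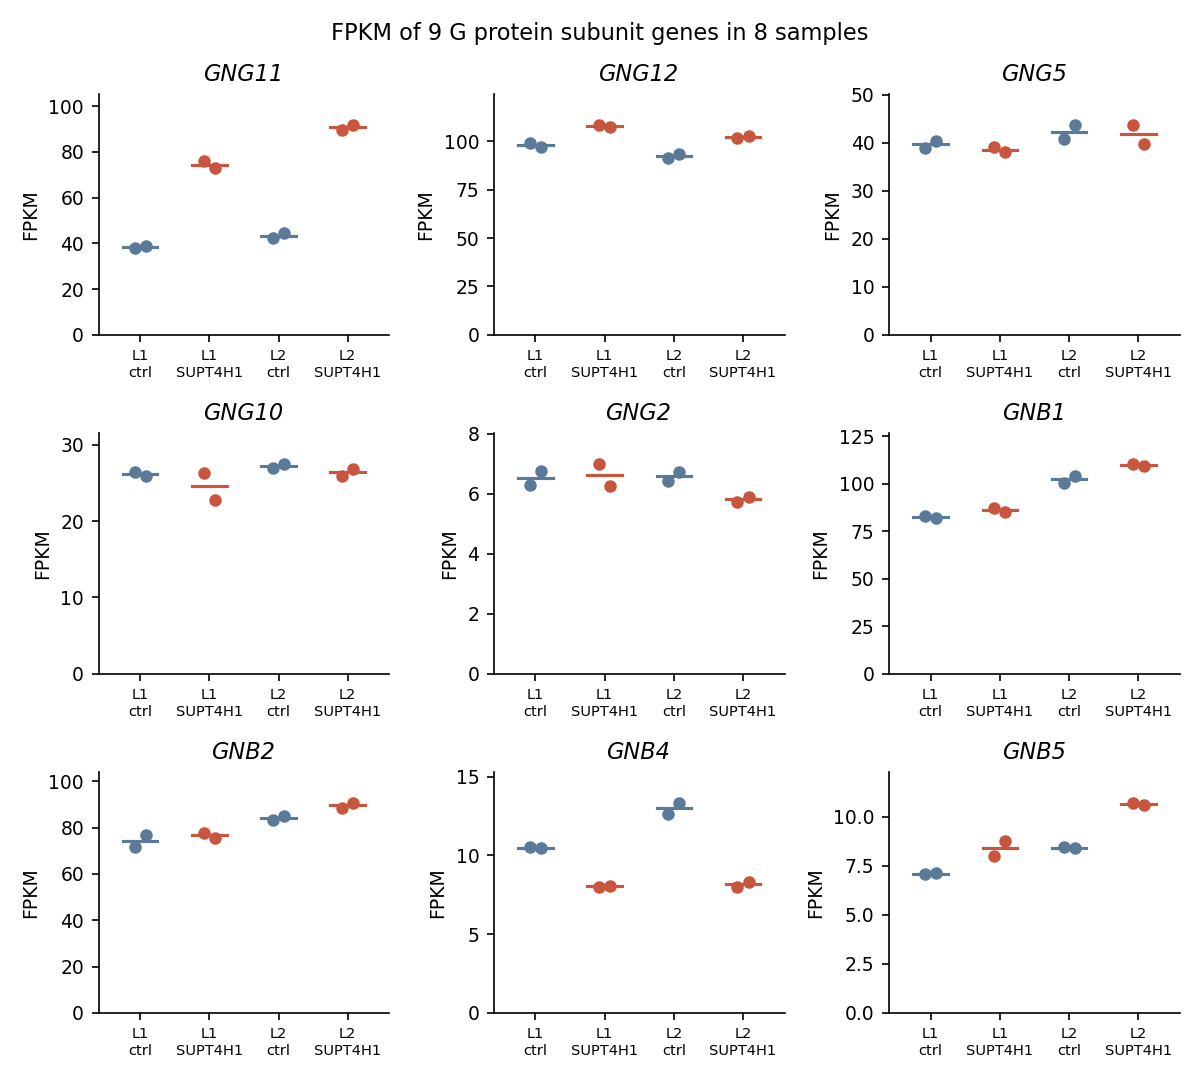
Each panel shows 1 gene, with FPKM on the y axis from 0 and the 4 groups on the x axis (L1 and L2, the lines; ctrl, control siRNA in blue; SUPT4H1 siRNA in red); points are samples and bars are means of 2 replicates. GNG11 moves from 37.8 to 44.5 FPKM in the control to 72.8 to 91.8 FPKM, GNB4 moves down to 8.0 to 8.33 FPKM, and the other genes shift less.

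GNG11 took another place in the order of gamma levels, which can be set side by side because FPKM is scaled by transcript length. In the control samples the order was GNG12, then GNG5 and GNG11 with overlapping ranges (38.9 to 43.6 and 37.8 to 44.5 FPKM), then GNG10, then GNG2. In the SUPT4H1 siRNA samples it was GNG12, GNG11, GNG5, GNG10 and GNG2, with no overlap between neighbours. GNG11 supplied 18.1 to 20.6% of the summed gamma FPKM with control siRNA and 29.3 to 34.3% with SUPT4H1 siRNA. The share of GNG12 was 43.2 to 47.3% in the control and 38.1 to 43.2% in the SUPT4H1 siRNA samples, although its FPKM was higher, since the sum was larger too. The tables hold 12 gamma genes, of which only these 5 reached a mean of 1 FPKM. GNG7 stayed at or below 0.798 FPKM, GNG8 at or below 0.52 FPKM, and GNG3, GNG4 and GNGT2 at or below 0.182, 0.0258 and 0.0976 FPKM. GNG13 and GNGT1 were listed at 0 in all 8 samples.

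In GNB4 the SUPT4H1 siRNA samples all lay below the control samples. How many of all genes part in this way was not counted. GNB4 (chr3:179113876-179169371), a beta subunit close in sequence to the other common ones, measured 10.5 and 10.5 FPKM in the control and 8.0 and 8.07 FPKM in the SUPT4H1 siRNA replicates of line 1. In line 2 it measured 12.6 and 13.3 FPKM in the control and 8.0 and 8.33 FPKM in the SUPT4H1 siRNA replicates. The SUPT4H1 siRNA samples stood at 76.6% of the control mean in line 1 and 62.9% in line 2. The log2 difference with the line as a block was −0.48 (SE 0.0518).

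GNB5 differed in the other direction. GNB5 (chr15:52413123-52483565) is the divergent beta subunit that pairs with RGS proteins of the R7 group instead of a gamma subunit. It measured 7.06 and 7.11 FPKM in the control and 8.01 and 8.79 FPKM in the SUPT4H1 siRNA replicates of line 1, and 8.48 and 8.40 against 10.7 and 10.6 FPKM in line 2. Within each line the SUPT4H1 siRNA samples were higher, at ratios of 1.19 and 1.26, but over both lines the groups overlapped. The log2 difference was 0.26 (SE 0.0339). Of its R7 partners, RGS11 ranged from 2.98 to 5.53 FPKM, RGS7 and RGS9 stayed at or below 0.242 and 0.0922 FPKM, and RGS6 was listed at 0.

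GNB1 and GNB2, the widely expressed beta subunits, made up most of the beta FPKM and shifted little with the siRNA. GNB1 (chr1:1716724-1822556) measured 83.0 and 81.8 FPKM in the control and 87.4 and 85.1 FPKM in the SUPT4H1 siRNA replicates of line 1, and 101 and 104 against 110 and 110 FPKM in line 2. GNB2 (chr7:100271363-100276792) measured 71.7 and 76.8 against 77.8 and 75.7 FPKM in line 1 and 83.1 and 84.9 against 88.6 and 90.7 FPKM in line 2. Their log2 differences were 0.08 (SE 0.0234) for GNB1 and 0.07 (SE 0.0284) for GNB2. Over both lines the control and SUPT4H1 siRNA ranges overlapped for each gene. After scaling every sample by median ratios, the differences were 0.05 for GNB1 and 0.04 for GNB2.

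**Figure D3:**
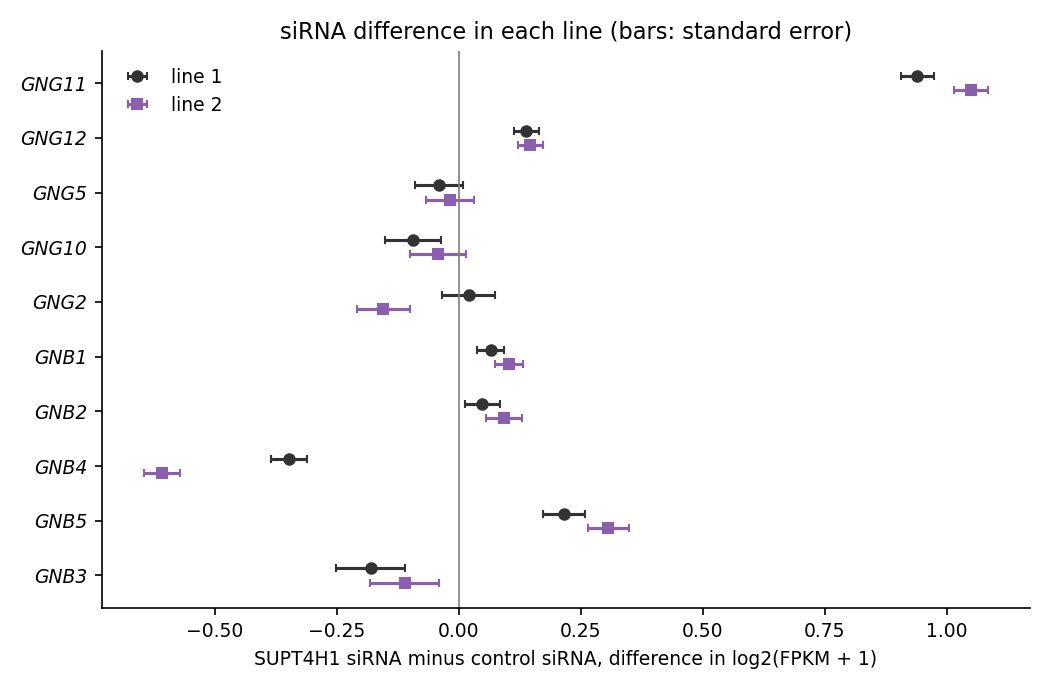
The x axis gives the difference in log2(FPKM + 1) between SUPT4H1 siRNA and control siRNA for each gene (y axis), with circles for line 1, squares for line 2 and bars for the standard error of the fit with 4 group means. GNG11 lies near 1 in both lines (0.94 and 1.05), GNB4 at −0.35 and −0.61, and GNG5 and GNG10 within 0.1 of 0.

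The beta order showed an overlap of GNB1 and GNB2 at the top, then GNB4, GNB5 and GNB3 without overlap in the control samples. In the SUPT4H1 siRNA samples GNB5 (8.01 to 10.7 FPKM) and GNB4 (8.0 to 8.33 FPKM) overlapped. GNB4 supplied 5.87 to 6.28% of the summed beta FPKM in the control and 3.65 to 4.49% in the SUPT4H1 siRNA samples, and GNB5 3.96 to 4.11% and 4.38 to 4.89%. GNB1 held 45.9 to 50.4% in all samples and GNB2 40.0 to 43.1%. GNB3, the only beta gene of the tables that is no member, was at 1.30 to 2.44 FPKM.

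Summed gamma FPKM was 209, 210, 208 and 216 with control siRNA and 258, 249, 267 and 267 in the SUPT4H1 siRNA samples. Without GNG11 the sum was 166 to 172 FPKM in the control and 176 to 182 FPKM in the SUPT4H1 siRNA samples, so most of the gain came from GNG11. Summed beta FPKM was 175 and 178 in the control and 183 and 180 in the SUPT4H1 siRNA replicates of line 1, and 206 and 212 against 219 and 221 in line 2. It was thus higher with SUPT4H1 siRNA within each line, by less than the lines differed. The summed FPKM of all rows was also higher there. It was 288293 and 291609 against 297431 and 304281 in line 1, and 293665 and 303371 against 303569 and 305680 in line 2. Whether the small rise of the beta sum, or of the gamma sum without GNG11, is part of this was not tested. The ratio of gamma to beta FPKM was 1.18 and 1.20 in the control and 1.38 and 1.41 in the SUPT4H1 siRNA samples of line 1. In line 2 it was 1.01 and 1.02 against 1.21 and 1.22. These are ratios of transcript levels, and protein was not measured.

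**Figure D4:**
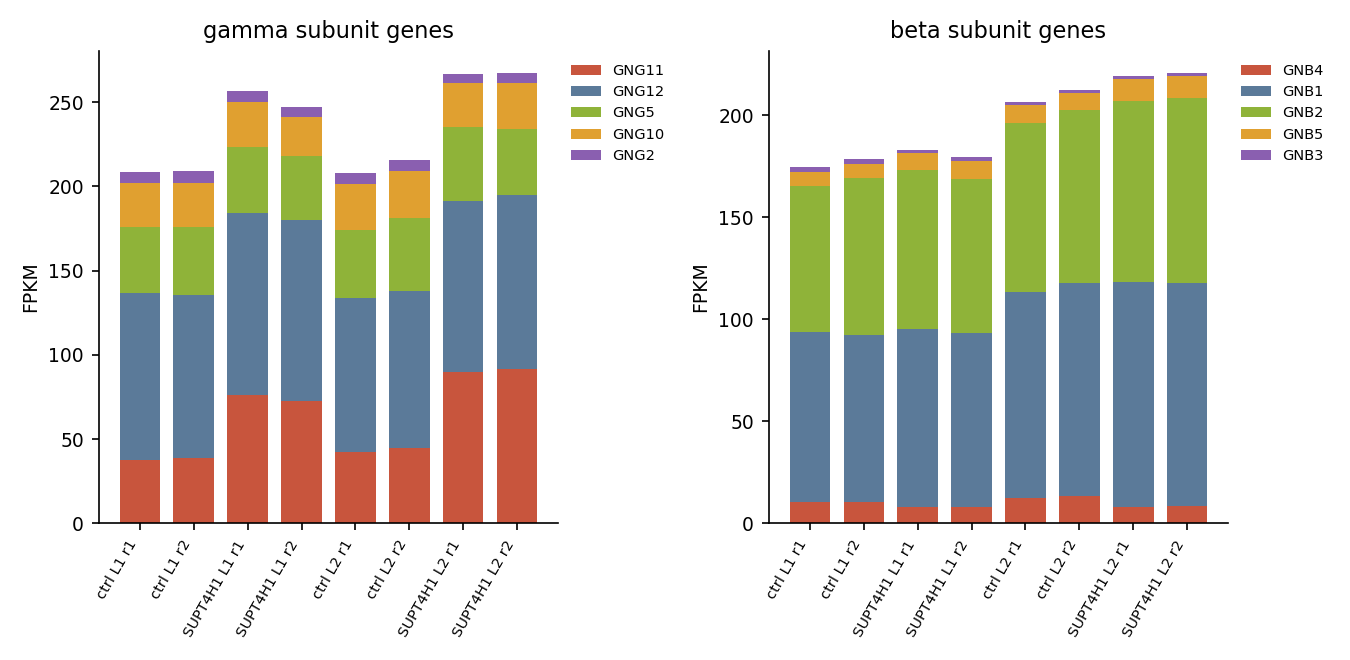
Stacked bars give the FPKM (y axis) of the 5 gamma genes (left) and the 5 beta genes (right) with a mean of 1 FPKM or more in each sample (x axis; L1 and L2, the lines; r1 and r2, the replicates). The red GNG11 segment grows in the 4 SUPT4H1 siRNA samples from 37.8 to 44.5 FPKM in the control to 72.8 to 91.8 FPKM, and the gamma sum is larger there.

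For the whole table, the siRNA difference was tested with limma on log2(FPKM + 1) in 11486 genes with the line as a block and Benjamini-Hochberg adjustment at 0.05. It called 26.4% of the genes higher and 15% lower. Among the 9 members, all of which were tested, 4 (GNG11, GNG12, GNB1 and GNB5) were past that threshold upwards, 1 (GNB4) downwards and 4 not, and nothing is read from this count since the contrast chose the members. Without the block, as the series groups its samples, the same model called 3.53% of the genes higher and 1.73% lower. Of the members only GNG11 and GNB4 were past the threshold there, and nothing is read from this either. The members' median log2 difference was 0.07, beside 0.03 for all genes tested. Of all calls with the block, 63.8% were higher, and after scaling by median ratios 50.2% were. After that scaling GNB1 was no longer past the threshold with the block, which is likewise a description only. None of the 9 members changed the sign of its difference in any of the 17 alternatives. The choice of block, filter or variance trend cannot move these differences, so nothing is read from this.

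The line difference does not depend on the siRNA contrast and was tested for the members. In limma's fit with both factors, 65.2% of all genes tested differed between line 2 and line 1, and 7 of the 9 members did, 6 of them higher in line 2, which is not read as particular to them. GNG11 was higher in line 2 by 0.23 on the log2(FPKM + 1) scale (SE 0.0321, adjusted p = 0.000252), with 67.0 ± 27.4 against 56.3 ± 20.9 FPKM (SD, n = 4 each, both siRNAs). Within either siRNA, every line 2 sample of GNG11 lay above every line 1 sample. GNB1 was higher by 0.33 (adjusted p = 3.9e-06), GNB5 by 0.27 (adjusted p = 0.000137) and GNB2 by 0.20 (adjusted p = 0.000288) in limma's test. These 4 genes kept their call in all 15 alternatives.

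Smaller line differences were less stable. GNG12 was lower in line 2, at −0.08 (adjusted p = 0.00804 in limma), but after scaling by median ratios its difference was −0.04 with an adjusted p of 0.094. GNB4 was higher in line 2 by 0.15 (adjusted p = 0.029), and without any 1 of the 4 control samples the adjusted p was 0.0735 to 0.0839. GNG5 was higher by 0.10 (adjusted p = 0.0364), a call lost without control line 1 replicate 1, either SUPT4H1 siRNA replicate of line 1, control line 2 replicate 2 or SUPT4H1 siRNA line 2 replicate 1, with adjusted p up to 0.101. With no filter on FPKM, GNB4 and GNG5 also lost their calls (adjusted p = 0.0593 and 0.0586 in limma). GNG5 lost its call without the variance trend too (adjusted p = 0.05). GNG10 (0.08, adjusted p = 0.131) and GNG2 (−0.07, adjusted p = 0.204) did not pass. GNG10 passed after scaling and also without SUPT4H1 siRNA line 1 replicate 1, with an adjusted p of 0.0326 each time.

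Whether the siRNA difference itself differed between the lines was tested as an interaction in limma's fit of 4 group means, which called 8.87% of all genes. Among the members it called GNB4, whose log2 difference was −0.35 (SE 0.0368) in line 1 and −0.61 (SE 0.0368) in line 2, a gap of −0.26 (SE 0.052, adjusted p = 0.0185). The lines differed in their control samples (10.5 against 12.6 and 13.3 FPKM) and met in the SUPT4H1 siRNA samples, all at 8.0 to 8.33 FPKM. This call was lost without control line 1 replicate 1 (adjusted p = 0.066) or replicate 2 (0.0701), SUPT4H1 siRNA line 1 replicate 2 (0.0655), control line 2 replicate 2 (0.0575) or SUPT4H1 siRNA line 2 replicate 1 (0.0693), each a fit with fewer samples. GNG11, at 0.94 (SE 0.0346) in line 1 and 1.05 (SE 0.0346) in line 2, gave a gap of 0.11 (SE 0.049, adjusted p = 0.222). GNG2, with 0.02 in line 1 and −0.15 in line 2, gave a gap of −0.18 (SE 0.0769, adjusted p = 0.212). Neither passed, which does not show that their responses were alike.

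The genes nearest to GNG11 on chromosome 7 did not all show its pattern. TFPI2, a secreted inhibitor of serine proteases whose locus ends 30.7 kb from GNG11, rose in limma's test. It measured 1.83 and 1.5 FPKM in the control and 6.49 and 5.70 FPKM in the SUPT4H1 siRNA replicates of line 1, and 1.47 and 1.95 against 4.38 and 4.50 FPKM in line 2. The ratio was 3.66 in line 1 and 2.60 in line 2 at these low levels, and the call held in all 16 alternatives (highest adjusted p = 0.00282, without the block). BET1, a SNARE protein of transport from the endoplasmic reticulum to the Golgi, lies 65.2 kb away on the other side and ranged from 9.41 to 11.2 FPKM in the control and 9.77 to 10.8 FPKM in the SUPT4H1 siRNA samples, with no call in any of its 17 alternatives. GNGT1, the gamma subunit of rod photoreceptors, sits between TFPI2 and GNG11, 10.5 kb from the latter, and was listed at 0. The other rows within 500 kb were CALCR and 3 microRNA genes at or below 0.0085 FPKM and COL1A2, whose estimate is marked as failed in some samples and was left out.

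The genes whose profile over the 8 samples was most like that of GNG11, by the root mean square distance of centred log2(FPKM + 1) values, were PRELP (0.0823), PALMD (0.129), MGARP (0.15), RASSF2 (0.168) and FAM43A (0.169). PRELP, a leucine-rich repeat protein of the extracellular matrix, measured 20.3 to 21.7 FPKM in the control and 40.3 to 46.6 FPKM in the SUPT4H1 siRNA samples. RASSF2, a Ras-association domain protein, measured 20.7 to 24.2 and 31.9 to 41.0 FPKM. MGARP, a mitochondrial protein, stood at 8.65 to 10.6 and 13.3 to 20.6 FPKM, and FAM43A at 6.77 to 8.0 and 11.8 to 13.4 FPKM. PALMD was low, with a control mean below the filter of 1 FPKM, at 0.599 to 0.84 and 2.29 to 2.58 FPKM, so its likeness on the log2(FPKM + 1) scale is to an understated ratio. In each of the 5 the control and SUPT4H1 siRNA samples did not overlap. They were chosen by likeness to GNG11, so this comes with the choice and is no separate result.

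The other genes of the pathway come from lists written with earlier results of these data known. Their counts are read beside the 26.4% and 15% of all genes. The share of all genes at an unadjusted p under 0.05 was not counted, so list counts at that threshold are not read. Of the 16 alpha subunit genes, 9 were tested: 5 rose, none fell (0 also at an unadjusted p under 0.05) and 4 did not pass limma's test at an adjusted p of 0.05, with a list median of 0.08 beside 0.03 for all genes tested. GNA14, an alpha subunit of the Gq group, is 1 of these 5, but its control mean was below 1 FPKM and it entered the test only through the group where it is high. Its levels, 0.679 to 0.905 FPKM in the control and 1.43 to 2.70 FPKM in the SUPT4H1 siRNA samples, are therefore given without a test. Of the 8 genes with a mean of 1 FPKM or more in both groups, 4 rose with the block and 1, GNA11, without it. GNA11, also of the Gq group, rose by 0.23 on the log2(FPKM + 1) scale, from 21.1 ± 0.625 to 24.9 ± 1.11 FPKM (SD, n = 4 each). The inhibitory alpha subunits GNAI2 and GNAI1 rose by 0.24 and 0.14 with the block, with adjusted p of 0.333 and 0.163 without it. GNAI2 was abundant, at 112 to 137 FPKM in the control and 125 to 170 FPKM in the SUPT4H1 siRNA samples. GNA12 rose by 0.08, a call lost without any control sample, without replicate 1 of the SUPT4H1 siRNA in either line (adjusted p 0.0526 to 0.0738 over these 6) and after scaling (0.15). GNAS, the stimulatory alpha subunit, was the most abundant of the list at 397 to 565 FPKM, with a log2 difference of −0.01 that did not pass.

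GNB3, the beta subunit of cones and other cells, fell by 0.15 with the block, from 1.90 ± 0.47 to 1.61 ± 0.332 FPKM (SD, n = 4 each; adjusted p = 0.0484 in limma). The adjusted p was 0.637 without the block and 0.0571 to 0.135 without any 1 sample other than control line 2 replicate 2, where it was 0.0276. GNB3 was the only gene tested among the 8 other beta and gamma genes.

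Of 21 genes that fold or assemble G protein subunits, alpha included, or attach and process their lipids, 19 were tested, of which 5 rose, none fell (0 also at an unadjusted p under 0.05) and 14 did not pass limma's test, with a list median of 0.05. ICMT, which methylates the prenylated cysteine, rose by 0.30 (SE 0.0245, adjusted p = 5.31e-05 in limma), from 28.9 ± 2.23 to 35.8 ± 1.91 FPKM (SD, n = 4 each), and was the only gene of the list called without the block (adjusted p = 0.04). PCYOX1, which breaks down prenylcysteine, rose by 0.22, RIC8A, a chaperone of alpha subunits, by 0.15, ZMPSTE24, a protease of prenylated proteins, by 0.15, and CCT3, a subunit of the CCT chaperonin that folds beta subunits, by 0.13. The farnesyltransferase subunits FNTA and FNTB ranged from 20.9 to 25.3 FPKM and from 3.33 to 5.74 FPKM, and the geranylgeranyl transferase subunit PGGT1B from 3.48 to 4.6 FPKM. None of these 3 passed the test.

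The effector list holds 24 genes from families with beta-gamma effectors, and which of them beta-gamma acts on was not tested. Of these genes, 9 were tested, and 3 rose, 4 fell and 2 did not pass with the block, with a list median of 0.06. Without the block limma called none, with adjusted p of 0.0913 or more. At an unadjusted p under 0.05, 3 were higher and 1 lower, which is not read without the share of all genes. PLCB3, a phospholipase C, rose by 0.32 and PLCB4, of the same family, fell by 0.32. PLCB3 measured 6.79 and 6.88 against 8.04 and 7.64 FPKM in line 1 and 7.84 and 7.95 against 11.3 and 11.3 FPKM in line 2. The adenylyl cyclase ADCY3 fell by 0.29 and ADCY6 rose by 0.19, and the calcium channel subunit CACNA1A fell by 0.30. The genes of the potassium channels that beta-gamma opens, KCNJ3, KCNJ5, KCNJ6 and KCNJ9, stayed at or below 0.607 FPKM.

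Of 57 receptor genes, 24 were tested, and 3 rose, 3 fell and 18 did not pass. S1PR3, a receptor for sphingosine 1-phosphate, rose by 0.70 (SE 0.0358, adjusted p = 5.97e-06 in limma), from 30.2 ± 3.03 to 49.96 ± 7.21 FPKM (SD, n = 4 each). CMKLR1, the chemerin receptor, fell by 1.08 (SE 0.0376, adjusted p = 1.13e-06), from 6.67 ± 1.23 to 2.63 ± 0.566 FPKM (SD, n = 4 each). PTH1R, the parathyroid hormone receptor, fell by 0.47. These 3 also passed without the block. BDKRB2, the bradykinin B2 receptor, rose by 0.60 with the block only. The third rise, ADRA1D, an alpha-1 adrenergic receptor, entered the test only through its SUPT4H1 siRNA mean of 1.28 FPKM beside 0.826 FPKM in the control, so of the 23 receptors at 1 FPKM or more in both groups 2 rose. The median log2 difference of the 24 was −0.02, and its sign turned with no filter or a filter of mean FPKM 5 (0.0034 and 0.0035).

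Of 23 RGS genes, which speed GTP hydrolysis on alpha subunits, 7 were tested, none rose (2 at an unadjusted p under 0.05) and 2 fell in limma's fit with the block, with a list median of 0.03. That median turned to −0.03 with a pseudocount of 0.1 and to −0.14 with a filter of mean FPKM 5, and to −0.02 and −0.01 without control or SUPT4H1 siRNA line 1 replicate 1. Without the block limma called none, and 0 had an unadjusted p under 0.05. RGS10 fell by 0.15 and RGS3 by 0.13. Of 9 receptor kinases and arrestins, 5 were tested with a median of 0.03, and 1 rose: GRK5, a kinase that marks active receptors, by 0.26 (adjusted p = 0.00137 in limma; 0.0393 without the block). ADRBK1, the kinase that free beta-gamma brings to the membrane, ranged from 10.7 to 12.7 FPKM and did not pass.

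**Figure D5:**
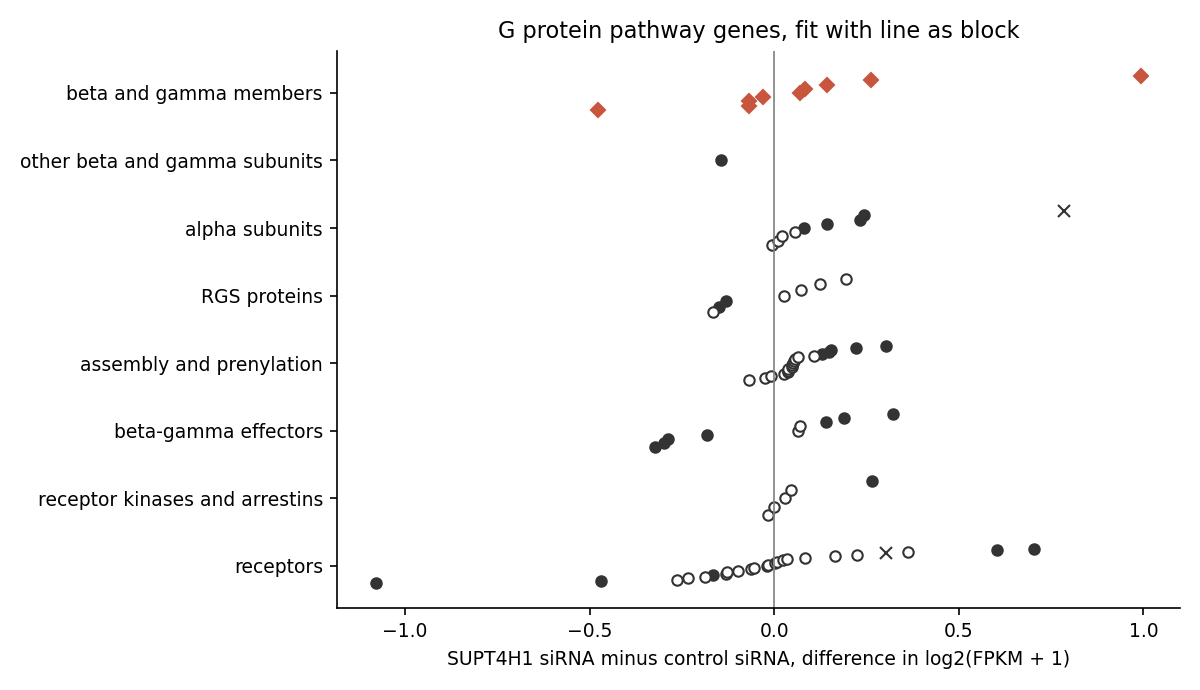
The x axis gives the difference in log2(FPKM + 1) between SUPT4H1 siRNA and control siRNA with the line as a block, 1 point per tested gene, and each row is a list. Filled circles passed an adjusted p of 0.05 in limma, open circles did not, crosses (GNA14 and ADRA1D) had a mean below 1 FPKM in the control group and red diamonds are the 9 members, both given without a test. Among the circles S1PR3 at 0.70 lies farthest to the right and CMKLR1 at −1.08 farthest to the left.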

How the data were processed

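RNA of 8 fibroblast samples was sequenced from polyA libraries. The authors deposited FPKM per gene with interval bounds and a status, per the file headers, and the build is hg19, per the submitters' processing notes. Which aligner, counting program, annotation and strand setting were used is not given in the sources used here. Rows of 1 symbol were summed. Genes with a mean FPKM of at least 1 and the status OK in every sample were kept (11486 genes). These were tested on log2(FPKM + 1) with limma 3.58.1 in R 4.3.3 (moderated variances with a trend, 2-sided, Benjamini-Hochberg over all genes). The model was line + siRNA (5 residual degrees of freedom), or 4 group means for the interaction (4). The series groups 4 against 4, which is the fit without the block. The script was also run on simulated data with independent noise, which checks the code and not the calls made here. The line is the block because its samples share their cells: deviations from the siRNA means correlated at 0.713 to 0.81 within a line. Members and lists were chosen with earlier results of these data known. Named were all members and other beta and gamma genes, up to 5 called genes per list with the largest difference, the 5 genes most like GNG11 and its neighbours with a mean FPKM of at least 1. Other genes named in lists (GNAS, FNTA, FNTB, PGGT1B, the KCNJ genes, the RGS partners of GNB5, ADRBK1) were chosen after their values were seen. Depth is not given, and was compared through the width of the deposited intervals. Only 2 samples per group limit the precision, and 2 lines allow no statement on fibroblasts in general. Sequences are from RefSeq (GRCh38.p14, matched by symbol for all 9 members) and GENCODE v29.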

Additional observations from a re-analysis of the deposited data

Results flagged for a closer look

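The siRNA difference itself differed between the lines in limma's interaction test for 1 of the 9 members, beside 8.87% of all genes. It did so for 3 of the 9 genes tested of the effector list and for 7 of the 24 receptors tested. Of the other lists, the test called 0 of 9 alpha subunit genes, 0 of 7 RGS genes and 0 of 19 assembly and prenylation genes. It also called 0 of 5 receptor kinases and arrestins, and not GNB3. No list was tested as a set. The gap, line 2 minus line 1 on the log2(FPKM + 1) scale, was −0.2612 for GNB4 (adjusted p = 0.0185). For PLCB3 it was 0.2956 (adjusted p = 0.0087), from a difference of 0.17 in line 1 and 0.47 in line 2. For ADCY3 it was −0.3133 (adjusted p = 0.00383), from −0.13 and −0.44. PLCB3 and ADCY3 kept the call in all 16 alternatives and GNB4 in 11 of 16. The remaining gene of the effector list was ADCY7, and the receptors were LPAR6, S1PR1, PTGFR, AGTR1, ADRA2A, ACKR3 and GPER1, all 8 named after their values were seen.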

How the results depend on the processing

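With no replicate block for the line, 405 genes rose and 199 fell, against 3036 and 1724 with it, and among the named list genes the calls of GNB3, GNAI2, GNAI1, GNA12, RGS10, RGS3, PCYOX1, RIC8A, ZMPSTE24, CCT3, PLCB4, PLCB3, CACNA1A, ADCY3, ADCY6, BDKRB2 and ADRA1D were lost. The replicate numbers were not shown to pair samples: same-numbered deviations correlated at 0.196 in line 1 and 0.0846 in line 2. A replicate block of line and number gave 2528 rises and 1411 falls, without the calls of GNB3 and GNA12. A filter of mean FPKM 5, which tests fewer genes, left 2788 genes lower in line 2, against 4329. The interaction called 548 genes more positive and 471 more negative in line 2, and 259 to 428 and 258 to 367 without any 1 sample, a fit with fewer samples. The median of the effector list was 0.0633 and turned to −0.00247 with no filter on FPKM, which adds genes of low level. The RGS and receptor medians also turned under some alternatives. The members' log2 differences stayed between 0.96 and 1.02 for GNG11 and between −0.52 and −0.44 for GNB4 over 17 alternatives. The choice of block, filter or variance trend cannot move them, so these ranges are a description only. Removing the small RNA rows was chosen after seeing the data and gave 3070 rises and 1737 falls. Depth limits the low genes: the deposited interval of GNB3 reached 14.7 to 21.3% of the value to either side, against 1.58 to 1.8% for GNG12.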
